A study of Mus musculus with 360 samples.

Results

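Spp1 (osteopontin), Ibsp (bone sialoprotein), Dmp1 (dentin matrix protein 1) and Mepe (matrix extracellular phosphoglycoprotein) belong to the SIBLING family of acidic, phosphorylated proteins of the mineralised matrix. They were taken by name as 4 of the 24015 genes in the count tables. Read counts were available for single CD51+;CD200+ skeletal stem/progenitor cells, sorted from pooled wild-type CD-1 mice at pN3 (postnatal day 3). The cells came from 3 sutures of the skull, dissected with the adjoining bone and mesenchyme, and from the tibial growth plate (GP). The sutures were the posterior frontal (PF), which fuses early in mice, and the coronal (COR) and sagittal (SAG), which stay patent. The sort left out cells positive for CD45, Ter119, Tie2, Thy1, 6C3 or CD105. No group carried a mutation or a treatment. After a filter on poor cells 325 of 360 cells remained, namely 74 from COR, 78 from GP, 86 from SAG and 87 from PF, on 2 plates per tissue. No animal was named for any cell, so every tissue counted as 1 sample, no p-value was possible, and the plates were the only spread.

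SIBLING proteins carry an RGD motif that binds integrins, and acidic stretches that bind calcium and mineral. Ibsp promotes the nucleation of hydroxyapatite, whereas Spp1, when phosphorylated, restrains crystal growth and serves as a ligand for cells. Dmp1 and Mepe are known for their late expression, in osteoblasts that become embedded and in osteocytes, and both act on phosphate handling together with the endopeptidase Phex. In cartilage, Spp1 and Ibsp are also made by hypertrophic chondrocytes next to the mineralisation front.

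In the mm9 build with the GENCODE vM1 annotation the 4 genes lay on the plus strand of chromosome 5 within 238.4 kb. Dmp1 spanned chr5:104631632-104643121, Ibsp chr5:104728190-104740488, Mepe chr5:104754348-104767630 and Spp1 chr5:104864137-104870069, with no other protein-coding gene between them. Dspp (dentin sialophosphoprotein), the fifth family gene, lay just before Dmp1 at chr5:104599731-104609146. The bases before the RefSeq starts are shown for the members because 3 of them were read in the same cells. Each window holds the 150 bases before the start on the plus strand, from the RefSeq promoter table (build GRCm38.p6) and placed in mm9 by exact match, and capitals mark the motifs searched.
Spp1, chr5:104863980-104864129: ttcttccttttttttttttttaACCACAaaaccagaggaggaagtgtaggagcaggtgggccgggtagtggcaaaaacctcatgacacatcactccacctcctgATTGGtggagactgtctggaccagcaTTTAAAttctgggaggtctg
Ibsp, chr5:104728156-104728305: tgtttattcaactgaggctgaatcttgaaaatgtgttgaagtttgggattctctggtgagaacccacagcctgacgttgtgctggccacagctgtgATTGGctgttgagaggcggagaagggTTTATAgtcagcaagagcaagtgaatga
Dmp1, chr5:104631486-104631635: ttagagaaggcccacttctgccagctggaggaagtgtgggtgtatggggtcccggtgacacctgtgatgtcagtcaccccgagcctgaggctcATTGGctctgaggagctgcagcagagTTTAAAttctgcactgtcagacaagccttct
Mepe, chr5:104754198-104754347: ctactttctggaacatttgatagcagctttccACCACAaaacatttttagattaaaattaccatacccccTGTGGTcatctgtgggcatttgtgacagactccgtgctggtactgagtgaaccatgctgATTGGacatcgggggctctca
The letters CCAAT, searched on both strands, stood as ATTGG in the 4 windows shown, and 24.5% of all 32851 RefSeq windows of this length hold them. The ATTGG began 46 bases before the start in Spp1, 54 in Ibsp, 57 in Dmp1 and 21 in Mepe. The RUNX core ACCACA or its complement TGTGGT occurred 1 time in the Spp1 and 2 times in the Mepe window and was not in the other windows shown, against 8.4% of all windows. TTTAAA, which reads alike on both strands, was present in Spp1 and Dmp1 (6.75% of all windows), and TATAAA stood as TTTATA in Ibsp (7.57% of all windows). No motif overlapped another. For Spp1 and Dmp1, which have 2 RefSeq entries each, the one nearest to the GENCODE start was used. The other window of Spp1, chr5:104865061-104865210, held none of the motifs, and the other of Dmp1, chr5:104626444-104626593, held ATTGG alone. For Mepe both starts coincide, and for Ibsp the GENCODE start lies 116 bases before the RefSeq start. These matches are descriptions of letters, not of bound sites.

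Spp1 was the most abundant member in every tissue. The tissues held 17212041 to 32037308 reads. Expression is given as CPM, the reads of a gene scaled to 1000000 summed reads of the cells, with the ribosomal RNA gene Rn45s left out of the total. Spp1 stood at 50844 CPM in COR (plate 1, 82132 and plate 2, 47327), 32423 CPM in GP (557 and 39114), 29962 CPM in PF (68300.1 and 20662) and 11812 CPM in SAG (29201 and 251). Exact Poisson 95% intervals, which cover counting error only, ran from 50766 to 50922 CPM in COR and from 11761 to 11864 CPM in SAG. The plates differed by log2 values of 6.86 in SAG and -6.13 in GP (plate 1 to plate 2). The median size of this difference over all genes was 2.42 in SAG and 0.64 in GP. In the order of tissues COR lay above GP in 4 of 4 comparisons of a plate with a plate, but by a log2 ratio of 0.65 only, and in 3 of 4 without the cell with most Spp1 reads in each tissue. GP and PF could not be ordered (1 of 4), nor could PF and SAG (3 of 4). Without the cell with most Spp1 reads in each tissue, SAG fell to 886 CPM and PF to 25295 CPM. PF then lay above SAG in 4 of 4, by a log2 ratio of 4.83.

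In summed reads of all cells, Ibsp differed least between the tissues. It stood at 1878 CPM in COR (9086 and 1068 on plates 1 and 2), 1707 CPM in GP (392 and 1984), 1343 CPM in SAG (2418 and 628) and 1234 CPM in PF (1256 and 1228). The plates of COR, of GP and of SAG each lay on both sides of the PF plates, and no neighbours in this order had 4 plate comparisons of one sign. All 6 tissue ratios of Ibsp were under 1 on the log2 scale, from -0.61 for PF to COR to 0.14 for COR to GP. A single cell held 47.6% of the SAG reads. Without the cell with most Ibsp reads in each tissue, SAG fell to 709 CPM and COR to 1484 CPM. The log2 ratio of SAG to COR was then -1.06, with SAG higher in 0 of 4 plate comparisons. PF lay above SAG in 4 of 4, by a log2 ratio of 0.44.

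Dmp1 differed more between the tissues, though a single cell held 45.9% to 79.1% of its reads in each. It stood at 1385 CPM in PF (1760 and 1294), 537 CPM in COR (486 and 542), 134 CPM in SAG (266 and 46.7) and 84.5 CPM in GP (225 and 55.1). Both PF plates lay above both COR plates, and both COR plates above all 4 plates of SAG and GP, while SAG and GP overlapped. The log2 ratio was 1.37 for PF to COR, 3.36 for PF to SAG, 4.02 for PF to GP, 1.99 for COR to SAG and 2.65 for COR to GP. A single cell of PF plate 2 held 71.3% of the PF reads, and a single cell of COR plate 2 held 48.8% of the COR reads. Without the cell with most Dmp1 reads in each tissue, PF stood at 409 CPM and COR at 283 CPM, a log2 ratio of 0.53, with SAG at 29.03 CPM and GP at 45.8 CPM. PF plate 2 then fell to 69.7 CPM, under COR plate 1 (486 CPM) and COR plate 2 (259 CPM), so that PF lay above COR in 2 of 4 plate comparisons. PF and COR each still lay above SAG and above GP in 4 of 4. The removal also took nearly all Dmp1 reads from plate 1 of SAG (0 CPM left) and of GP (0.82 CPM left). Against their plate 2 levels, 46.7 CPM in SAG and 55.1 CPM in GP, PF plate 2 was only a little higher.

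Mepe was almost absent. It was at 30.8 CPM in COR (2.78 and 33.96), from 987 reads of which 978 came from 1 cell, and at 1.32 CPM in PF (6.76 and 0). SAG and GP had 0 reads, which allows up to 0.174 CPM in SAG and 0.105 CPM in GP at a floor of 3 reads over the tissue. That floor covers counting error only, and COR stood 177-fold above it in SAG and 292-fold above it in GP. Without the 1 cell the values were 1.63-fold and 2.7-fold, from 9 reads in 1 cell. Counted by cells, no minimum fold follows. Mepe was read in 2 of 74 COR cells (2.7%), and the exact binomial upper limits were 4.2% in SAG (0 of 86) and 4.62% in GP (0 of 78). Dspp, best known from dentin, had 0 reads in all 4 tissues.

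**Figure D1:**
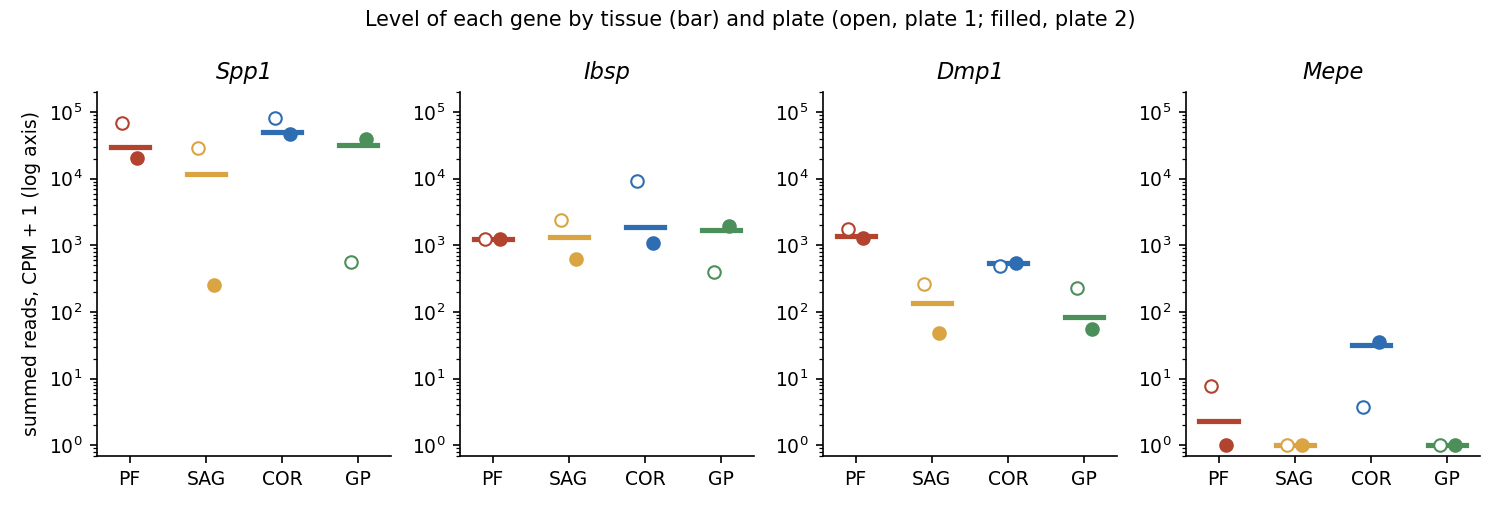
CPM + 1 of the 4 genes (log axis) per tissue, with the tissue as a bar and its plates as points (open, plate 1; filled, plate 2). Spp1 runs from 251 to 82132 CPM over the 8 plates, and the Dmp1 level of PF plate 2, above both COR plates, falls to 69.7 CPM without 1 cell.

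Divided by the length of the annotated exons, the summed levels of the members kept one order in every tissue. Per kb of exon, Spp1 stood between 7168 CPM (SAG) and 30852 CPM (COR), and Ibsp between 597 CPM (PF) and 908 CPM (COR). Dmp1 stood between 30.6 CPM (GP) and 501 CPM (PF), and Mepe between 0 and 18.3 CPM (COR). In PF the levels of Ibsp and Dmp1 per kb were close (597 and 501 CPM), whereas in GP Ibsp was at 826 CPM and Dmp1 at 30.6 CPM. On single plates the order could differ, as Dmp1 exceeded Ibsp on PF plate 1 (637 and 607 CPM per kb) and Ibsp exceeded Spp1 on SAG plate 2 (303 and 152 CPM per kb). Lengths are those of GENCODE and may not be those of the annotation used for counting.

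To see how far these ratios stand out, a gene was called where its log2 ratio was at least 1 in size and all 4 plate comparisons had one sign, among genes with at least 10 CPM in 1 of the 2 tissues. Dmp1 was called higher in PF than in SAG, where 16.9% of all genes were called in that direction and 13.2% in the other. It was called higher in PF than in COR, where 5.43% were called higher in PF and 6.36% higher in COR, but not without the top cell of each tissue. It was also called higher in PF than in GP, against 7.67% of genes called higher in PF and 8.73% higher in GP. Spp1 and Dmp1 were called higher in COR than in SAG, with 18.9% of genes higher in COR and 13.5% higher in SAG. Dmp1 was called higher in COR than in GP, beside 6.33% of genes in that direction and 7.09% in the other. No member was called between SAG and GP, where 13.3% of genes were called higher in SAG and 18.3% higher in GP. Mepe passed the level filter and the call in COR against SAG and GP only through 1 cell, without which COR was at 0.284 CPM and would not have been tested, so these calls are not counted. The comparisons share tissues and are not independent of each other. On SAG plate 2, 86.8% of reads were Rn45s and cells had a median of 875 genes, against 20.2% to 30.96% and medians of 2112 to 3867 genes on the other plates. The part of this in the SAG ratios was not tested. Without that plate, Dmp1 to SAG was still 2.38 for PF and 1.01 for COR, and Spp1 in COR exceeded SAG by a log2 ratio of 0.80, under the fold needed for a call.

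The shares of cells with a read fell in the order Spp1, Ibsp, Dmp1, Mepe in every tissue. Spp1 was read in 141 of 325 cells (43.4%, exact binomial 95% interval 37.9 to 48.97), Ibsp in 73 (22.5%, 18.04 to 27.4), Dmp1 in 29 (8.92%, 6.06 to 12.6) and Mepe in 3 (0.923%, 0.191 to 2.67). By tissue, Spp1 was read in 56.8% of COR cells (42 of 74), 53.8% of GP cells (42 of 78), 43.7% of PF cells (38 of 87) and 22.1% of SAG cells (19 of 86). Ibsp was read in 31.03% of PF cells (27), 25.7% of COR (19), 23.1% of GP (18) and 10.5% of SAG cells (9). Dmp1 was read in 10 PF, 8 COR, 8 GP and 3 SAG cells. The intervals for Dmp1 overlapped in all 4 tissues, for example 5.65 to 20.1% in PF and 4.53 to 19.2% in GP. PF and GP thus had similar shares of cells with Dmp1 (11.5% and 10.3%) but summed levels of 1385 and 84.5 CPM. At 10 reads or more the shares were 10.3% in PF (9 cells) and 5.13% in GP (4 cells). In the cells with a read, the median was 1724 CPM in PF, 5026 CPM in COR, 3183 CPM in SAG and 485 CPM in GP.

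Depth moved with detection, as cells with a Spp1 read had a median of 375352 reads other than Rn45s and those without one 235202. Thinned to 100000 such reads per cell, which left 288 cells (70 PF, 80 SAG, 71 COR, 67 GP), the shares were 36.5% for Spp1, 20.1% for Ibsp, 8.68% for Dmp1 and 1.04% for Mepe. For Spp1 they were then 44.8% in GP, 43.7% in COR, 41.4% in PF and 18.8% in SAG. Many Spp1 detections were shallow. Of the 141 cells 48 held under 10 reads and 16 from there to under 100, 21 held at least 100 but under 1000, 23 at least 1000 but under 10000, and 33 held 10000 or more. Ibsp detections were mostly deep, with 8 of 73 cells under 10 reads, and Dmp1 had 6 of 29. With 10 reads as the minimum, Spp1 was found in 28.6%, Ibsp in 20%, Dmp1 in 7.08% and Mepe in 0.615% of cells.

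**Figure D2:**
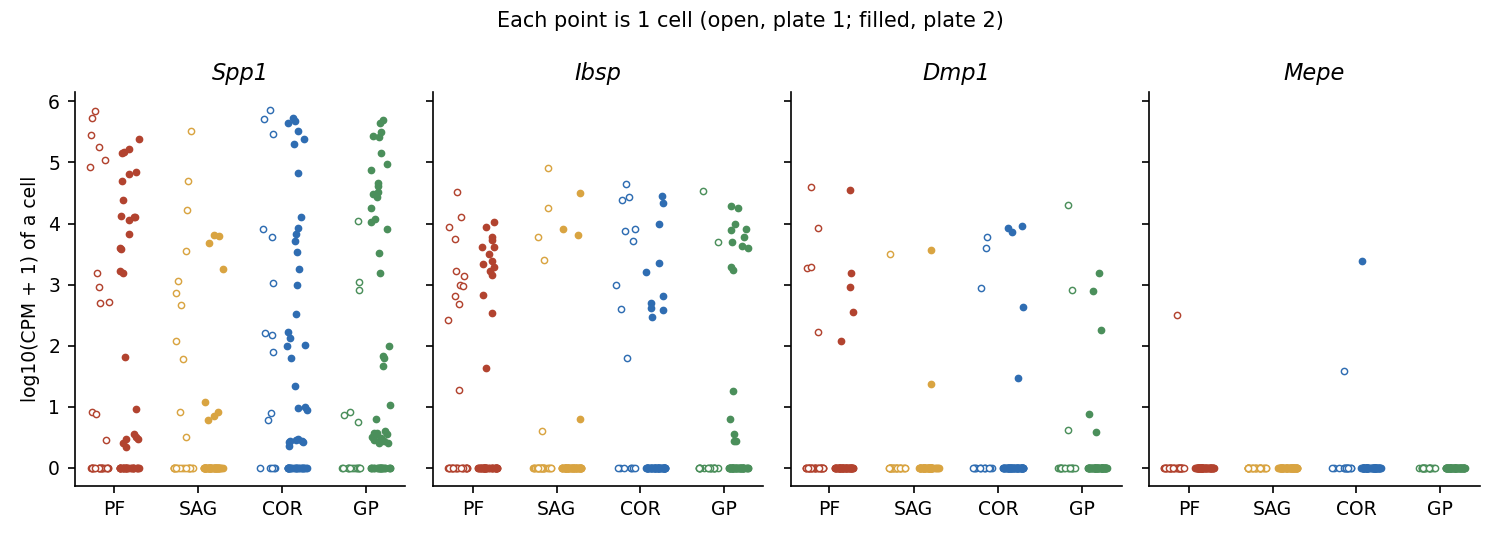
log10(CPM + 1) of each gene in each of the 325 cells, by tissue and plate (open, plate 1; filled, plate 2), with sideways jitter. Spp1 spreads from single reads up to 726190 CPM, and Mepe has a read in 3 cells.

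The members were read in a nearly nested order over cells. A cell was counted as nested where the genes read in it were the first of Spp1, Ibsp, Dmp1 and Mepe, without a gap. Of the 150 cells with a read of any member 138 were nested (92%), with Spp1 alone in 74 cells, Spp1 and Ibsp in 39, those and Dmp1 in 23, and all 4 genes in 2. A cell with Spp1 alone is nested by definition, and the order is that of the shares themselves. Among the 68 cells with at least 2 members, 64 were nested. In PF this held for 25 of 25 such cells, in SAG for 8 of 8, in COR for 16 of 18 and in GP for 15 of 17. Without SAG plate 2, 130 of 142 cells were nested (91.5%), thinned cells gave 102 of 113 (90.3%), and the minimum of 10 reads gave 89.1%.

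**Figure D3:**
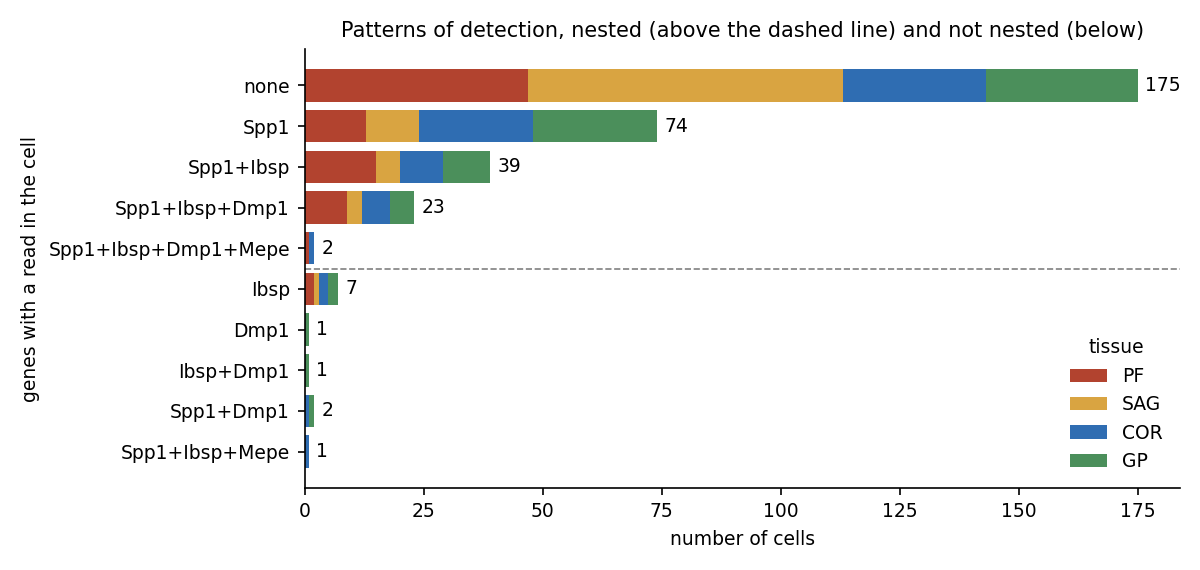
Number of cells with each pattern of detected genes (1 read or more), coloured by tissue. The 5 nested patterns above the dashed line hold 175, 74, 39, 23 and 2 cells and the 5 patterns below it 12 cells in all.

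Seen from the rarer gene, Dmp1 almost always came with the earlier members. Of 29 cells with a Dmp1 read 27 also had Spp1 and 26 had Ibsp, where 43.4% and 22.5% of all cells had them. Of 73 cells with Ibsp 65 had Spp1 and 26 had Dmp1. Of 141 cells with Spp1 only 65 had Ibsp and 27 had Dmp1. All 3 cells with Mepe had Spp1 and Ibsp, and 2 had Dmp1. The 12 exceptions were 7 cells with Ibsp alone, 1 with Dmp1 alone, 1 with Ibsp and Dmp1, 2 with Spp1 and Dmp1, and 1 with Mepe but no Dmp1. In 5 of them the gene out of order had a single read. The clear ones included COR plate 1 cells with 10012 and 1225 Ibsp reads and no Spp1 read, and a GP plate 1 cell with 1917 Ibsp and 1106 Dmp1 reads and no Spp1 read. Conversely a COR plate 2 cell held 326034 Spp1 and 294 Dmp1 reads and no Ibsp read.

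Across cells Spp1 and Ibsp were the genes most like each other. Likeness was measured as Pearson's r over 325 cells of log2(CPM+1) with the mean of each plate subtracted, among genes read in at least 20 cells and the members, and is given as a description. Cells share plates and depth, and 0 counts weigh on every value. The gene most like Spp1 was Ibsp (r = 0.71, from 0.59 in COR to 0.84 in PF), followed by Dmp1 (0.55), Vdr (0.53), Bglap (0.53) and Enpp6 (0.51). For Ibsp the nearest were Spp1, Col22a1 (0.58), Ifitm5 (0.57), Dmp1 (0.56) and Enpp6 (0.53). For Dmp1 they were Ibsp, Spp1, Enpp6 (0.50), Phex (0.47) and Dkk1 (0.45). Vdr encodes the vitamin D receptor, Bglap osteocalcin, Ifitm5 a membrane protein of osteoblasts, and Dkk1 a secreted Wnt inhibitor. Spp1 and Bglap went together in PF (0.72), SAG (0.83) and COR (0.55) but not in GP (-0.03). Mepe, read in 3 cells, had its highest values with Syt6 (0.41), Megf10 (0.35), Neat1 (0.30), Magi2 (0.29) and Jam2 (0.28), and ranked Spp1 at 20 of 9310 genes.

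The Spp1 reads came from very few cells. Of all 3663192 reads 23 cells held 90%, and in 25 cells Spp1 exceeded 10% of the cell's own reads, in 6 cells 50%. One SAG plate 1 cell held 92.8% of all SAG reads, and without it SAG was at 886 CPM. Taken by tissue, 10 cells held 90% of the PF reads, 1 cell those of SAG, 7 cells those of COR and 7 cells those of GP. These 25 cells were looked at singly, and the genes named with them were chosen after values had been seen. In PF, Col1a1 (the main collagen chain of bone) ranged from 105 to 206083 reads in the 10 cells. Col10a1, the collagen of hypertrophic cartilage, had 0 reads in the 18 cells of the sutures.

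In GP most of these cells carried cartilage genes instead of Col1a1. Of the 7 GP cells 6 had Col10a1 reads, between 2040 and 59916, together with 497 to 42019 reads of the cartilage collagen Col2a1 and 340 to 24550 of the matrix protease Mmp13. These 6 cells held 0 to 200 Col1a1 reads. Their Ibsp reads ran from 0 to 16698, and 3 of the 6 had Dmp1, with 641, 546 and 1 read. The seventh cell had 46987 Col1a1 reads and no Col10a1 read. Over all cells Col10a1 was read in 14, of which 13 were GP cells and 1 a COR cell with a trace, and all 14 had Spp1 and 9 had Ibsp. Col10a1 stood at 4890 CPM in GP, all from plate 2, which was also the plate with 39114 CPM of Spp1.

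**Figure D4:**
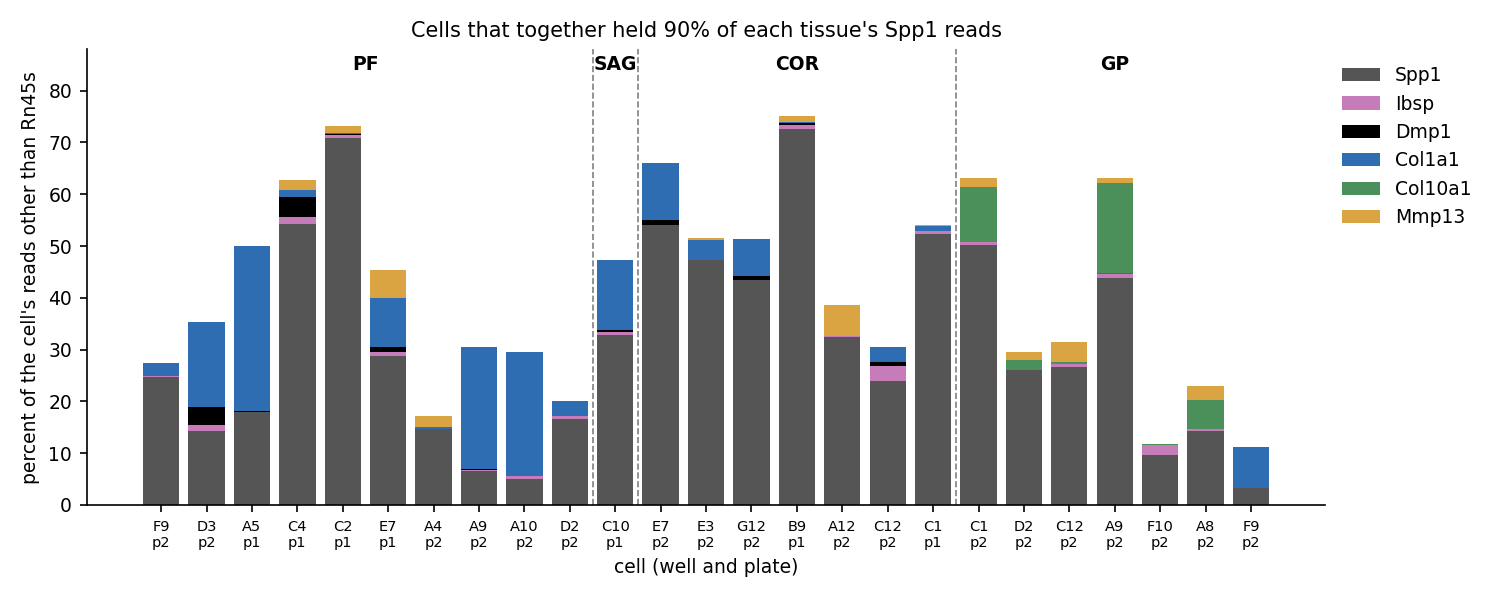
Percent of each cell's reads other than Rn45s taken by Spp1, Ibsp, Dmp1, Col1a1, Col10a1 and Mmp13, stacked, in the 25 cells that held 90% of their tissue's Spp1 reads (well and plate below, tissue above). Suture cells show Col1a1 or Mmp13 beside Spp1, and 6 of 7 GP cells have Col10a1 and next to no Col1a1.

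In some suture cells Spp1 took most of the reads. In a COR plate 1 cell Spp1 took 72.6% of 240846 reads, with 1674 genes read and 385 Col1a1 reads. In a PF plate 1 cell it took 70.9% of 124417 reads, with 1099 genes and 105 Col1a1 reads. Both cells had reads of all 4 members, with 1944 Ibsp, 972 Dmp1 and 9 Mepe reads in the first and 688, 241 and 40 in the second. The third cell with Mepe, on COR plate 2, held 978 Mepe, 129558 Spp1 and 915 Ibsp reads, 0 Dmp1 reads, 39 Col1a1 reads and 218 Phex reads. Of the osteoclast and macrophage genes read out in these 3 cells, Ctsk, Ptprc, Csf1r and Cd68 had 0 reads, and Acp5 had 149 reads in the last cell and 0 in the others. Whether a well held more than 1 cell was not tested.

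Of the 14 osteoblast genes 12 were read in a larger share of the cells with Dmp1 than of all cells, and 2, Alpl and Dlx5, in a smaller one. Of the 9 osteocyte genes 7 had a larger share, Pdpn a smaller one and Sost no read. These are descriptions of the same cells and were not tested, and no such tally was made over all genes. Cells with Dmp1 had a median of 406687 reads other than Rn45s, against 263055 in cells without it. Their median number of genes was 2485, against 2730.5. Some of the 12 genes were read in nearly every cell, such as Sparc in 322 and Col1a2 in 317 of all 325. Of the 29 cells 14 had a read of Phex, which was read in 22 of all 325 cells, and 13 had Dkk1, also read in 22. Fam20c, the kinase that phosphorylates SIBLING proteins, was read in 19 of the 29 and in 67 of all cells. Bglap was read in 19 and in 75 of all, and Ifitm5 in 18 and in 54 of all. Fgf23, a phosphate hormone of osteocytes, was read in 3 cells, all of them with Dmp1, and Sost, which marks mature osteocytes, had 0 reads in all 4 tissues. Alpl, the phosphatase of mineralising cells, was read in 14 of the 29 and in 179 of all cells, Dlx5 in 10 and in 115, and Pdpn in 8 and in 102. The osteoblast transcription factor Runx2 was read in 18 and in 149 of all. Col1a1 was read in 29 of 29. The genes of this paragraph that fall outside the naming rule, Fgf23 and Sost, were chosen after values had been seen.

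Genes for the enzymes that process SIBLING proteins formed a further list. Of the 9 on this list 8 were tested between PF and SAG, of which 0 were called higher in PF than in SAG and 3 lower (Fam20c, Mmp2 and Mmp9), with a median log2 ratio of -1.46 against 0.29 over all genes tested. Between SAG and COR, 4 of 8 were higher in SAG (Tll1, Furin, Mmp2 and Mmp9), with a median of 1.08 against -0.29. Of all genes, 13.2% were called higher in SAG than in PF and 13.5% higher in SAG than in COR. Mmp2 and Mmp9 were also higher in SAG than in GP (median 0.08 against -0.23). Fam20a, a partner of Fam20c, was higher in COR and in GP than in PF (medians -0.38 against 0.03 and -0.80 against 0.10), and none was called between COR and GP (-0.47 against 0.07). Phex was low everywhere, with 30.6 CPM in GP from 9 cells, 28.6 in SAG from 3, 21.8 in COR from 6 and 17.2 in PF from 4. Mmp9 stood at 4063 CPM in SAG and at 17.5 to 208 CPM elsewhere.

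Of the receptor genes Cd44 was called in the most comparisons. Itgav encodes CD51, on which the cells were sorted, and ranged only from 75.2 CPM in SAG to 90.3 CPM in COR, with no call in any comparison. Cd44, a receptor of Spp1, was at 368 CPM in COR against 105 in PF, 105 in GP and 40.7 in SAG, and was called higher in COR than in each of the other tissues, and higher in PF and GP than in SAG. Itga4 was called higher in GP than in each other tissue, at 12.4 CPM, and Itga8 higher in GP than in SAG and COR. Itga5 was higher in SAG than in GP. The shares of all genes called higher than in SAG were 16.9% for PF, 18.9% for COR and 18.3% for GP. Those called higher in COR were 6.36% against PF and 6.33% against GP. Those called higher in GP were 8.73% against PF and 7.09% against COR, and 13.3% were called higher in SAG than in GP. Over the 7 to 9 receptor genes tested, the median log2 ratio lay between -1.10 (SAG against GP, where all genes had -0.23) and 0.23 (PF against SAG, where all genes had 0.29).

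Among the osteoblast genes, 7 of the 13 tested were called higher in PF than in SAG and 1, Runx2, lower (median 1.72 against 0.29). Likewise 7 were higher in COR than in SAG, 7 in PF than in GP and 5 in COR than in GP. Of all genes, 16.9% were called higher in PF than in SAG and 18.9% higher in COR than in SAG. Against GP, 7.67% of all genes were called higher in PF and 6.33% higher in COR. The medians of the list were -1.70 (SAG to COR, all genes -0.29), 1.12 (PF to GP, all genes 0.10) and 1.22 (COR to GP, all genes 0.07). Between PF and COR 2 were called, both higher in COR (Dlx5 and Omd, median 0.08), and between SAG and GP 2 each way (median -0.85). Bglap, which may share reads with its near copy Bglap2, reached 1323 CPM in PF and 1252 CPM in COR (37.4 and 1389 on its plates), but 190 CPM in GP and 87.3 CPM in SAG. In Spp1, GP (32423 CPM) and PF (29962 CPM) had similar sums, but GP plate 1 stood at 557 CPM, and without GP plate 2 the log2 ratio of PF to GP was 5.75. Col1a1 was highest in PF at 82641 CPM and lowest in SAG at 19548 CPM. Among the 9 osteocyte genes, summing to 335 to 496 CPM per tissue, called genes went both ways. Of 7 tested between PF and SAG, 4 were called higher in PF and 1 lower (16.9% and 13.2% of all genes). Of 7 tested between SAG and COR, 1 was higher in SAG and 3 in COR (13.5% and 18.9%). Between COR and GP 2 were called each way (6.33% and 7.09%), and between PF and GP 1 each way (7.67% and 8.73%). SAG to GP gave 1 higher in SAG and 2 in GP (13.3% and 18.3%). For PF to COR, 1 was higher in COR (6.36%) and 0 in PF (5.43%). The medians lay between -0.71 (SAG to COR, all genes -0.29) and 1.34 (PF to SAG, all genes 0.29).

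Markers of other cells were measured beside the members. Of the 7 osteoclast genes Ocstamp, Dcstamp and Calcr had 0 reads throughout, and the sum was 4298 CPM in SAG, of which 4063 CPM were Mmp9, and 565 to 960 CPM elsewhere. A single cell held 35.2% of the SAG sum. Between PF and SAG, Mmp9 was called higher in SAG, where 13.2% of all genes were. Acp5 (83.4 CPM in PF and 8.71 in SAG) and Ctsk (747 and 226) were called higher in PF, where 16.9% were. Acp5 was also called higher in COR than in SAG (18.9% of all genes), and Ctsk higher in GP than in SAG (18.3%). The 5 macrophage genes summed to 3.02 to 30.5 CPM and the 5 endothelial genes to 0 to 16.4 CPM, with Pecam1, Tek and Emcn at 0. The 8 chondrocyte genes summed to 13727 CPM in SAG (16246 and 12052 on plates 1 and 2), 248 CPM in PF and 153 CPM in COR. In GP they summed to 4981 CPM (903 and 5837). A single cell held 67.3% of the GP sum, and a single cell 42.4% of the sum of SAG plate 1. Of these genes 8 of 8 were called higher in SAG than in PF and than in COR. Of all genes 13.2% and 13.5% were called in these directions. The 4 hypertrophic genes summed to 1756 to 7276 CPM, and the 6 fibroblast genes to 8129 CPM in SAG and 18621 to 36101 CPM elsewhere. The part of cartilage genes in the levels of Spp1 and Ibsp in GP was not tested, beyond the single cells above. A summed level falls alike with fewer cells of a type and with less RNA per cell, so the shares of cells above are given beside it.

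The genes on either side of the cluster were also measured. Sparcl1, which lies before Dspp, was lowest in COR at 30.7 CPM, against 192 in GP, 204 in SAG and 367 in PF, and was called lower in COR than in SAG and GP. Pkd2 (52.3 to 72.2 CPM) and BC005561 (45.7 to 81.7 CPM), which follow Spp1, were not called in any comparison. Gm17660 had 0 reads.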

How the data were processed

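Single CD51+;CD200+ cells were profiled by SMART-seq2, a full-length poly(A) protocol without molecular identifiers. The authors deposited raw counts of reads per gene in 8 tables, 1 per plate. The submitters' processing notes name STAR 2.5.3a, HTSeq, R 3.4.4, Seurat 2.3.0 and mm9. PCR copies are counted, so intervals and floors (3 reads) cover counting error only. Column names were matched to cell labels, with 0 columns left over. The label of 1 SAG cell conflicts with itself.

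Cells with at least 500 genes and 10000 reads, Rn45s included, were kept. Reads were summed per tissue and plate, divided by the total without Rn45s and compared as log2(CPM + 1), which understates changes of low genes. Intervals are exact (95%). Single wells were not screened for doublets, and 0 cells had identical counts. Python 3.11.15, numpy 2.4.6, pandas 2.3.3, scipy 1.17.1, R 4.3.3 and edgeR 4.0.16 (TMM factors only) were used, and the calculations were checked on simulated data. RefSeq windows matched 4 of 4 members. Alternatives were another scaling, pseudocount, filters, a detection minimum, thinning, and leaving out plates or the top cell.

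The rule for naming took the members, the 5 genes most like each, list genes that were called (the 4 most abundant if over 4), and the neighbouring genes on the chromosome. Not every list gene under this rule is named in the results, so an unnamed list gene may still have been called. Examples are Lyz2 (macrophage list), Pth1r (hypertrophic list) and Kdr (endothelial list). Other genes were named after their values were seen. The members and lists were chosen with earlier results of these data known.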

Additional observations from a re-analysis of the deposited data

Results flagged for a closer look

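Of the 35 cells left out by the filter, 8 had a read of Spp1 (4070 reads in all) and 8 a read of Ibsp (735 reads). These cells enter no comparison of the report except the alternative without a cell filter. None had a read of Dmp1 or Mepe (0 of 35 cells), where a floor of 3 cells is a share of 8.57%. This floor is not the upper limit of an exact interval.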

How the results depend on the processing

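No sign of a log2 ratio called at the tissue level turned under any alternative run. No paired analysis was possible because plate numbers name no shared animal and no test was made. TMM factors, no cell filter and leaving out the cell with conflicting labels each moved the 21 member ratios by less than the spread of the plates. So did the stricter cell filter, but with it Spp1 went from -2.11 to -0.79 and Dmp1 from -1.99 to -0.9993 (SAG to COR), both under the fold of a call, and Spp1 from 1.34 to -0.10 (PF to SAG). With the mean of the cells' own CPM, the ratio of Dmp1 was 1.09 (PF to COR), 1.79 (PF to GP), -1.89 (SAG to GP) and 0.70 (COR to GP). Without the top cell of each tissue, Dmp1 was 0.53 (PF to COR) and Mepe -0.36 (PF to COR), -0.36 (SAG to COR) and 0.36 (COR to GP). A pseudocount of 0.1 gave -8.27 (SAG to COR) and 8.27 (COR to GP) for Mepe. With at least 10 reads, Spp1 was found in 32.2% of PF, 39.2% of COR and 30.8% of GP cells, and thinned in 43.7% of COR cells. Under the stricter filter Mepe was found in 0% of PF cells, and no cell of SAG plate 2 remained. Without the filter on low values, 912 genes were called higher in COR than PF, against 605.

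Leaving out 1 plate at a time, Spp1 ran from 0.037 to 6.89 (PF to SAG), -1.45 to 0.43 (PF to COR), -7.66 to -0.80 (SAG to COR), -0.65 to 5.75 (PF to GP), -7.01 to 4.41 (SAG to GP) and 0.38 to 6.51 (COR to GP). Ibsp ran from -2.88 to 0.21 (PF to COR), -2.76 to 0.36 (SAG to COR), -0.68 to 1.65 (PF to GP), -1.44 to 1.77 (SAG to GP) and -0.68 to 2.41 (COR to GP). Dmp1 ran from 2.38 to 4.86 (PF to SAG), 1.27 to 1.71 (PF to COR), -3.49 to -1.01 (SAG to COR), 2.62 to 4.63 (PF to GP) and 1.25 to 3.26 (COR to GP). Mepe ran from -4.99 to -0.70 (PF to COR), -5.13 to -1.92 (SAG to COR) and 1.92 to 5.13 (COR to GP). The share of cells with Spp1 ran from 14.3 to 36.7% in SAG, 53.4 to 68.8% in COR and 30 to 62.1% in GP, that with Ibsp from 17.2 to 56.3% in COR and 10 to 27.6% in GP, and that with Mepe from 0 to 2.94% in PF. Nested cells ran from 90.4 to 93%. The causes were not tested. Each tissue was 1 sample, on plates of 16 to 58 cells.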

Other observations

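Among the 25 cells that held 90% of their tissue's Spp1 reads, Mmp13, a collagenase of the matrix, and Bglap were seldom abundant together. This was noticed after the values had been seen and was not tested. The 25 cells mix suture cells with the 6 GP cells that had Col10a1 reads. All 6 of these had Mmp13 reads and 0 Bglap reads. Mmp13 exceeded 1% of the reads in 11 of the 25 cells, of which 1 had a Bglap read. At 1 read or more, 5 cells had both genes, 11 had Mmp13 without Bglap, 8 had Bglap without Mmp13 and 1 had neither. Over all 141 cells with Spp1, 56 had Mmp13, 57 had Bglap and 21 had both, and of the 18 with Mmp13 over 1% 4 had Bglap. All 3 cells with Mepe were of the first kind, with 2482, 1657 and 23724 Mmp13 reads and 0 Bglap reads.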
